A study of Mus musculus with 2 samples.

Results

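Bidirectional promoter peaks are stretches of open chromatin at places where 2 protein-coding genes begin close together and are transcribed away from each other. They were the replicate 2 peaks that overlapped a replicate 1 peak by at least 1 bp, lay on an autosome and had their centre within 500 bp of the interval between the 5′ ends of such a head-to-head pair of genes, 1000 bp or less apart in the GENCODE M21 annotation of mm10. There were 1052 of them among 167363 shared peaks on the autosomes and 171429 on all chromosomes. They were described with DNase-seq data, an assay that finds accessible DNA by where the enzyme DNase I can cut it. The material was midbrain of healthy 14.5 day mouse embryos of strain B6NCrl, with males and females pooled, and no treatment or mutant allele is named in the labels. There was 1 group of 2 biological replicates, which are separate biosamples under the same donor entry, so the number of animals behind each is not known.

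A bidirectional promoter is a stretch of DNA that starts transcription on both strands, with a gene running away on each side. Such promoters are known to be common in mammalian genomes, to lie mostly in CpG islands, to lack TATA boxes as a rule, and to serve many genes of DNA repair, mitochondria and basic cell metabolism. Open chromatin of this kind is usually found in most cell types, which sets these promoters apart from the distal enhancers that mark regional identity in the midbrain.

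The sequences of 10 of these promoters are given here because they show what is packed between the starts, from pairs that begin almost on top of each other to pairs with a wide gap between the starts. Each is the part of the strongest shared peak of its pair that lies between the annotated 5′ ends, with at most 20 bases of each gene, read 5′ to 3′ on the plus strand of GRCm38.p6 (mm10) from the RefSeq genome sequence. The gene named first is on the minus strand and runs to the left, and the second is on the plus strand and runs to the right. Capitals mark matches, on either strand, to the consensus letters of NRF1, ETS, the CCAAT box, the GC box, CRE, YY1, ZNF143, the CGCG palindrome and both E2F forms, spelled out with their shares further on.
Polr1c/Yipf3: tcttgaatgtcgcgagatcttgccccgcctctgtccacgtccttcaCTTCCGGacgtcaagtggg
Hjurp/Trpm8: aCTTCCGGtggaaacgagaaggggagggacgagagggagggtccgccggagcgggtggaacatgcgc
Xpc/Lsm3: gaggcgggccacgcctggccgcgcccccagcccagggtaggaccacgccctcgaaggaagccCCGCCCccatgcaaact
Dtl/Ints7: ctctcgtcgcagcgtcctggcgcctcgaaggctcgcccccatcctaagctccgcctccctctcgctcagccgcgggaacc
Psmb1/Tbp: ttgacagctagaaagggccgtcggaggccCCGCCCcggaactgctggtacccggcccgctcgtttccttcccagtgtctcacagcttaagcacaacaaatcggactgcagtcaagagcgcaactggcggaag
Mrps12/Sars2: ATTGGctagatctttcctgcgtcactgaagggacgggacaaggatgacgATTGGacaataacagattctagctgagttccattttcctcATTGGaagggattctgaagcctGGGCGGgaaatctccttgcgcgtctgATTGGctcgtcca
Brca1/Nbr1: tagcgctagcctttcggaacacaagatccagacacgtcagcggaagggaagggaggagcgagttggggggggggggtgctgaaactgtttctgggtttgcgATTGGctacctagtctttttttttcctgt
Safb2/Safb: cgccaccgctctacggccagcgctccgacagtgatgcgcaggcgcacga
Atm/Npat: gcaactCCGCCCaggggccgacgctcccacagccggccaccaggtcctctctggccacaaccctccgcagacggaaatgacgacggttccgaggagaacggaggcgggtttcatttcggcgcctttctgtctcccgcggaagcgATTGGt
Mcm4/Prkdc: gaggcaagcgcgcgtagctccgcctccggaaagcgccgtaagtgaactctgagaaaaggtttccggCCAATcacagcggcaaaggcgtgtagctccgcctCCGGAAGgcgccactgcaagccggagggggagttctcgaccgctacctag

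The printed stretch of Hjurp/Trpm8 was chr1:88277614-88277680, where the 5′ ends lay 28 bp apart at positions 20 and 48 of the sequence. Hjurp encodes the chaperone of the centromeric histone CENP-A and Trpm8 a cold-activated ion channel. Its capitals are an ETS match just inside Hjurp. Polr1c/Yipf3 (chr17:46248035-46248099) had its starts 26 bp apart, at positions 20 and 46, and the capitals are an ETS match just inside Yipf3. Polr1c is a shared subunit of RNA polymerases I and III. Xpc/Lsm3 (chr6:91515869-91515947), with a DNA damage sensor and a splicing protein 40 bp apart, carried a GC box match. Psmb1/Tbp (chr17:15499776-15499907) joins a proteasome subunit to the TATA-binding protein over 137 bp and carried a GC box match too.

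Dtl/Ints7 (chr1:191575576-191575655), with starts 92 bp apart, and Safb2/Safb (chr17:56584796-56584844), 240 bp apart, carried no match in the stretch shown. CCAAT box matches were found in 4 of the printed sequences, each from a pair over 100 bp apart. Those stretches are 130 to 150 bases long, against 65 to 80 for the printed pairs closer than 100 bp. A longer stretch has more room for a match. Mrps12/Sars2 (chr7:28741836-28741985), a mitochondrial ribosomal protein and the mitochondrial seryl-tRNA synthetase 172 bp apart, held 4 CCAAT box matches and 1 GC box match. Brca1/Nbr1 (chr11:101551936-101552065), a homologous recombination gene and an autophagy receptor 194 bp apart, held 1 CCAAT box match. Atm/Npat (chr9:53536856-53537005), the DNA break kinase and the activator of histone genes 307 bp apart, held 1 CCAAT box and 1 GC box match. Mcm4/Prkdc (chr16:15637396-15637545), a subunit of the replicative helicase and the catalytic subunit of the DNA-dependent protein kinase 466 bp apart, held 1 CCAAT box and 1 ETS match. A match is a run of letters and was not tested for binding.

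The replicates differed in what the authors called. Replicate 1 had 710176 peaks with a median value of 6, and replicate 2 had 267958 peaks with a median value of 51. The value is a whole number of at most 150 that the authors gave each peak, and it is not scaled to a common depth. For this reason each value was also turned into a percentile rank among the autosomal peaks of its own replicate, and replicates are given side by side. The read depth is unknown. As a check on the tissue, a shared peak lay within 500 bp of the 5′ end of 8 of 10 midbrain and isthmus genes, all 5 neuronal and all 5 progenitor genes, but also of 3 of 5 forebrain, 2 of 5 hindbrain and trunk, 2 of 5 endothelial, 1 of 5 microglial and 0 of 4 erythroid genes. The midbrain genes without one were Pax8 and Foxa2.

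The annotation held 735 head-to-head pairs, formed by 1450 of 20807 autosomal protein-coding genes (6.97%). Their spacing had a median of 128 bp (quartiles 66 and 240 bp, range 0 to 987 bp), and 20 genes belonged to more than 1 pair. Per chromosome, the share of genes in pairs ran from 3.90% on chromosome 18 to 9.71% on chromosome 8. A shared peak was found at 703 of the 735 pairs, or 95.6% (95% exact binomial interval 93.9 to 97.0%, which covers counting error only, as do those that follow). In replicate 1 alone 707 pairs had a peak, and in replicate 2 alone 710. A single shared peak stood at 397 pairs, 2 at 247, 3 at 49, 4 at 8 and 5 at 2 pairs. Of the 1052 peaks, 28 were counted under more than 1 pair.

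A shared peak was more frequent at starts in pairs than at single starts taken over all genes. To compare them with windows of equal size, the 500 bp to each side of each 5′ end were searched. Of the 1450 starts in pairs, 1365 had a shared peak (94.1%, interval 92.8 to 95.3%). Both starts of a pair were counted, here and in later values per start, though they often have the same peak. The interval treats them as separate and is therefore too narrow. Unpaired starts, with no protein-coding 5′ end on the opposite strand within 1000 bp, had one in 10804 of 18486 cases (58.4%, interval 57.7 to 59.2%). Unpaired starts that faced a long noncoding RNA head to head stood between them, with 579 of 671 (86.3%, interval 83.5 to 88.8%). In replicate 1 alone 64.1% of unpaired starts had a peak, and in replicate 2 alone 62.7%. Single starts of some gene families were about as often open as starts in pairs. A shared peak stood at 56 of 60 unpaired DNA repair starts, 51 of 53 of DNA replication and cell cycle, 67 of 69 of RNA polymerases and general factors and 58 of 64 of cytosolic ribosomal proteins. The part of gene family in the difference was not tested.

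The rule kept peaks found in both replicates, and in the windows of pairs most were. Of the 1164 replicate 2 peaks in the windows of pairs, 1052 overlapped a replicate 1 peak (90.4%), against 83.1% of replicate 2 peaks near unpaired starts and 64.1% of all autosomal replicate 2 peaks. Seen from the other side, 82.7% of the 1281 replicate 1 peaks in those windows overlapped a replicate 2 peak, against 76.8% near unpaired starts and 24.8% of all. The centres agreed closely: they were identical in both replicates for 443 of the 1052 members (42.1%), against 34.6% of the 14480 unpaired promoter peaks and 26.3% of all autosomal shared peaks. Centres lie on a grid of 20 bp, and 80.6% of the members were within 20 bp of each other, against 73.9% and 61.1%.

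The bidirectional promoter peaks were strong. Their values in replicate 1 ran from 5 to 148 with quartiles of 66 and 117, against quartiles of 32 and 103 at unpaired promoter peaks. In replicate 2 they ran from 25 to 150 with a median of 140 (125 and 144), against 128 (96 and 141). The median percentile rank was 99.2 in replicate 1 and 97.6 in replicate 2, against 97.9 and 95.1 at unpaired promoter peaks and 87.5 and 65.7 over all autosomal shared peaks. Of the members, 864 (82.1%, interval 79.7 to 84.4%) stood in the upper 10% of the values of both replicates. The share was 65.3% of unpaired promoter peaks and 15.3% of all autosomal shared peaks. The groups overlapped widely in both replicates, so a strong value does not tell a bidirectional promoter from a single one.

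**Figure D1:**
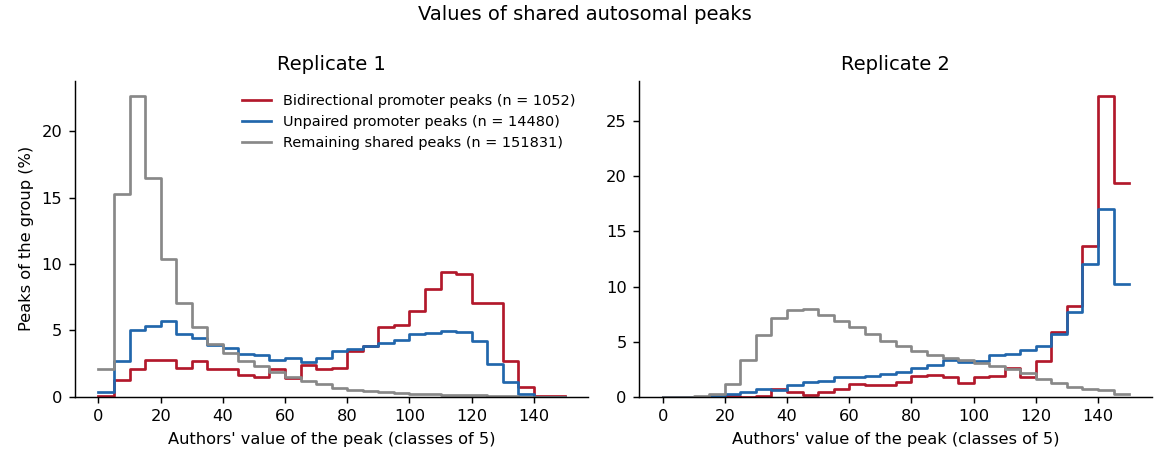
Share of peaks (%) in classes of 5 of the authors' value, for replicate 1 (left) and replicate 2 (right), in bidirectional promoter peaks (red), unpaired promoter peaks (blue) and the remaining autosomal shared peaks (grey). The bidirectional peaks pile up at high values, with quartiles of 66 and 117 in replicate 1, while the unpaired peaks spread over the range in replicate 1 (quartiles 32 and 103) and pile up at high values too in replicate 2 (quartiles 96 and 141), and the remaining peaks have medians of 18 in replicate 1 and 62 in replicate 2.

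The difference from single promoters narrowed, without a change of direction, when like promoters were compared. Among peaks with 9 to 17 CpG dinucleotides in 150 bp, the 597 bidirectional peaks had a median value of 104 in replicate 1 and 140 in replicate 2, against 85 and 135 for the 6641 unpaired peaks. The 761 unpaired promoter peaks at starts facing a long noncoding RNA had medians of 91 and 138. Taken per start, the strongest peak had a median of 111 and 143 at paired starts, against 86 and 136 at unpaired starts and 105 and 142 at those facing a long noncoding RNA. Starts in pairs with a peak had 1.39 shared peaks on average, against 1.36 at unpaired ones. Across the members the values of the replicates had a Spearman correlation of 0.912 (1052 peaks), against 0.959 (14480 peaks) at unpaired promoters. These are descriptions across peaks of the same 2 libraries, and in replicate 2 the values crowd towards 150, with 77.8% of the members above 120.

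Few pairs were weak. The strongest peak of the 703 pairs ran from 9 to 148 in replicate 1 (median 111, quartiles 98 and 121) and from 45 to 150 in replicate 2 (median 143, quartiles 139 and 146). It ranked in the upper 1 percent of all peaks at 536 pairs (76.2%) in replicate 1 and at 254 (36.1%) in replicate 2, with 252 pairs there in both. The lists ranked held 689185 autosomal peaks in replicate 1 and 260938 in replicate 2, so these shares are not on a like scale. Strongest peaks of unpaired starts ranked high too. Per start, with equal windows, the median rank was 99.5 and 98.4 at paired starts, against 98.7 and 96.7 at unpaired ones. Just 2 pairs (0.284%, interval 0.0345 to 1.02%) had a strongest peak under the median of the autosomal shared peaks in both replicates, against 596 of 10804 unpaired starts with a peak (5.52%, interval 5.09 to 5.96%). The windows differ here. A pair was searched over the interval between its 5′ ends and 500 bp to each side, an unpaired start over 500 bp to each side alone. The strongest peak of a wider window is less often weak, so part of this difference is given by the choice.

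The 10 pairs with the highest mean percentile rank were led by Hjurp/Trpm8, with values of 148 in replicate 1 and 150 in replicate 2. Dtl/Ints7, a ubiquitin ligase adaptor and an Integrator subunit 92 bp apart (5′ ends at chr1:191575544-191575636), had 139 and 150. Nfya/Oard1 had 138 and 150. Nfya encodes the A subunit of NF-Y, the factor that binds CCAAT boxes, and the strongest peak of its own pair (chr17:48409656-48409805) lay within the Nfya gene, with a second peak of 134 and 148 over the start of Oard1. Next came Phtf2/Tmem60 (135 and 150), Deaf1/Tmem80 (131 and 150), Mastl/Yme1l1 (131 and 150), Cep57/Fam76b (136 and 149), Safb2/Safb (134 and 149), Gm10644/Asf1b (128 and 150) and Nup98/Pgap2 (133 and 149). Mastl is a mitotic kinase, Cep57 a centrosome protein, Asf1b a histone chaperone and Nup98 a nuclear pore protein. Safb2 and Safb are related scaffold attachment factors.

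The lowest mean ranks belonged to 5 pairs with values of at most 25 in replicate 1 and 78 in replicate 2. Col4a4/Col4a3, the pair that holds 2 of the 4 autosomal collagen IV genes of basement membranes and a classic shared promoter, had 9 in replicate 1 and 55 in replicate 2, in a peak (chr1:82586956-82587105) that lay inside Col4a3 and covered neither 5′ end. Duox2/Duoxa2, the oxidase of thyroid hormone synthesis and its maturation factor, had 16 and 62. Sncg/Mmrn2 had 12 and 78, Grik5/Zfp574 13 and 70, and Stap2/Mpnd 25 and 45. Sncg encodes γ-synuclein of neurons and Grik5 a kainate receptor subunit. All 5 strongest peaks missed both 5′ ends, beside 198 of all 703 pairs with a peak (28.2%). At spacings of 0 to 50 bp it was 12 of 125 pairs, and beyond 500 bp 36 of 62. Of the 5 pairs, Sncg/Mmrn2, Duox2/Duoxa2 and Grik5/Zfp574 had starts 676, 451 and 221 bp apart.

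**Figure D2:**
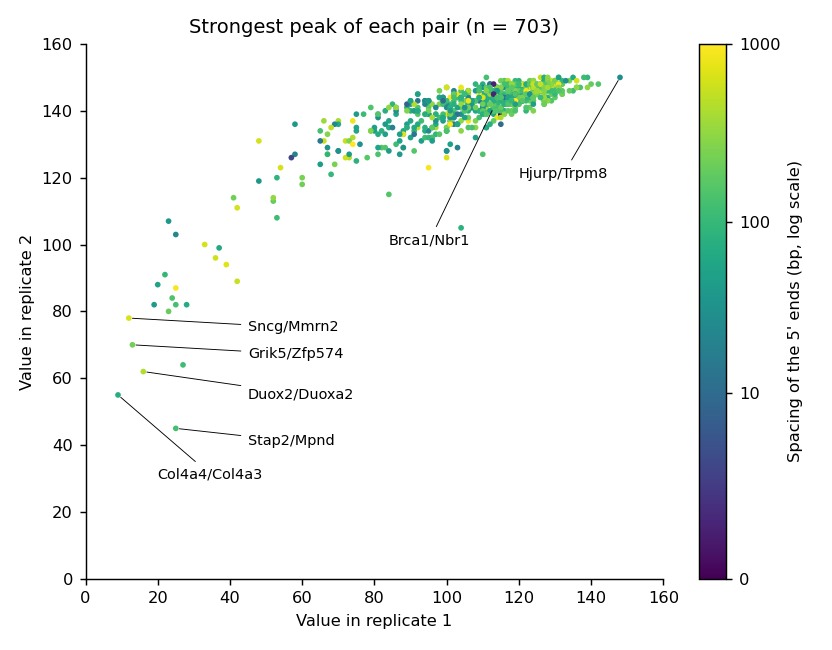
Value of the strongest shared peak of each of 703 pairs in replicate 1 (x axis) and replicate 2 (y axis), both on the authors' scale, with colour for the spacing of the 5′ ends in bp on a log scale. Most pairs crowd at the upper right around 111 and 143, and a thin tail runs down to Col4a4/Col4a3 at 9 and 55.

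The layout of the open chromatin went with the spacing of the 5′ ends. At spacings of 0 to 50 bp, 125 of 126 pairs had a peak, and the strongest peak covered both 5′ ends in 103 of them (82.4%). It did so in 107 of 172 pairs at 51 to 100 bp (62.2%), in 29 of 189 at over 100 and up to 200 bp (15.3%) and in none of 217 wider pairs, where a peak of 150 bp cannot reach. Pairs 150 bp or more apart in the class ending at 200 bp are out of reach too. Closer starts are easier to cover, so part of this fall is given by the peak width. The mean number of shared peaks per pair with a peak was 1.34, 1.41, 1.47, 1.57, 1.76 and 2.19 over the 6 spacing classes, which ended at 50, 100, 200, 300, 500 and 1000 bp. The window searched widens with the spacing too, so part of that climb is given by the rule. In the same order, 69.6%, 64.5%, 58.7%, 52.7%, 35.5% and 27.4% of the pairs had a single peak.

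Pooled over pairs, coverage was highest at or near the midpoint up to a spacing of 300 bp, and beyond it was highest on either side. The midpoint between the 5′ ends was covered by a shared peak at 92.9% of pairs in the 0 to 50 bp class, at 80.5% in the class ending at 200 bp and at 71.9% in that ending at 300 bp. Between 300 and 500 bp the midpoint was covered in 29.7% of 64 pairs, and coverage peaked at 53.1% on the side of the minus-strand gene and at 43.8% on the side of the plus-strand gene. Beyond 500 bp the midpoint was covered in 1.47% of 68 pairs, against 33.8% and 32.4% at the summits of those sides. A single shared peak stood at 22 of 62 pairs with a peak in the class ending at 500 bp and at 17 of 62 beyond it, so the summits do not mean a peak at each start of a pair. The median distance of the strongest peak's centre from the midpoint was 21.5, 25.8, 26.5, 42, 121 and 347 bp over the 6 classes.

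**Figure D3:**
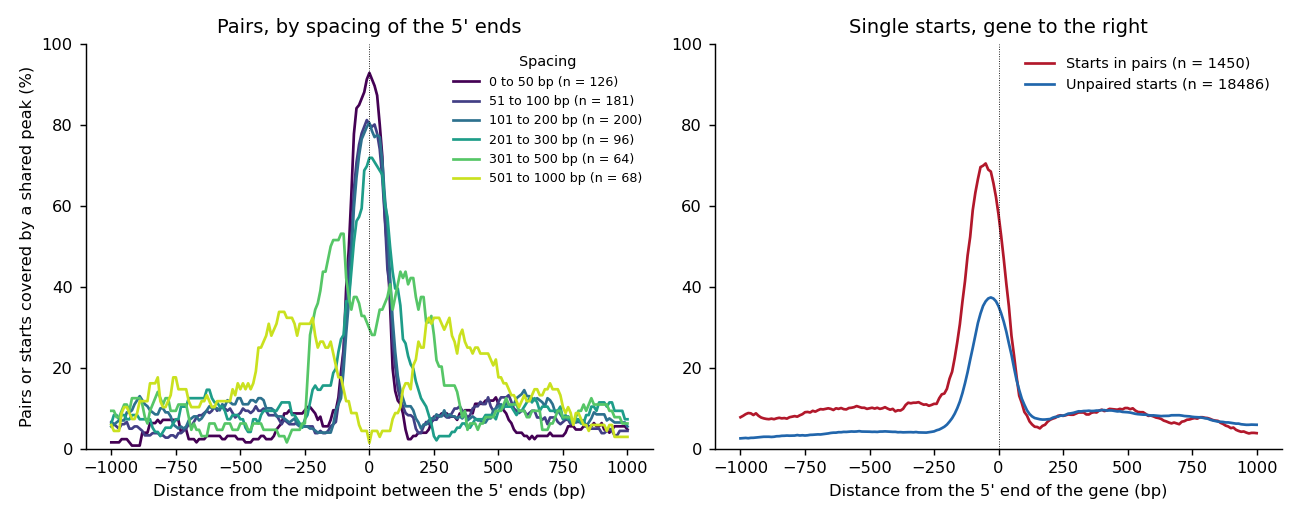
Share (%) of pairs covered by a shared peak against the distance in bp from the midpoint between the 5′ ends, by spacing class (left), and share of single starts covered against the distance from the 5′ end, with the gene to the right, for starts in pairs (red) and unpaired starts (blue). Pairs up to 300 bp apart have 1 central summit, wider pairs, when pooled, have a summit on each side, and starts in pairs reach 70.5% just upstream of the start against 37.4% at unpaired starts.

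The hotspots, wider regions that the authors called enriched for cuts, bridged most of these gaps. Both 5′ ends lay in the hotspot around the strongest peak at 650 of 703 pairs (92.5%) in replicate 1 and at 668 (95%) in replicate 2, and at 649 in both. At spacings over 300 and up to 500 bp the share was 91.9% in replicate 1 and 95.2% in replicate 2, and beyond 500 bp it was 58.1% and 74.2%. The median width of the hotspots around members was 1098 bp in replicate 1 and 1646 bp in replicate 2, against 942 and 1538 bp at unpaired promoter peaks and 347 and 420 bp over all autosomal shared peaks. Their −log10 q value stood at its cap of 100 for 93.0% of members in replicate 1 and 98.3% in replicate 2, against 81.7% and 95.2% of unpaired promoter peaks.

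The value of the strongest peak moved little over the spacing classes. Its median in replicate 1 was 102, 110, 115, 117, 116 and 106 over the 6 classes, and in replicate 2 it was 142, 142, 144, 143, 145 and 143. Across the 703 pairs the Spearman correlation of spacing with mean percentile rank was 0.179. All pairs come from the same 2 libraries, and this is a description.

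**Figure D4:**
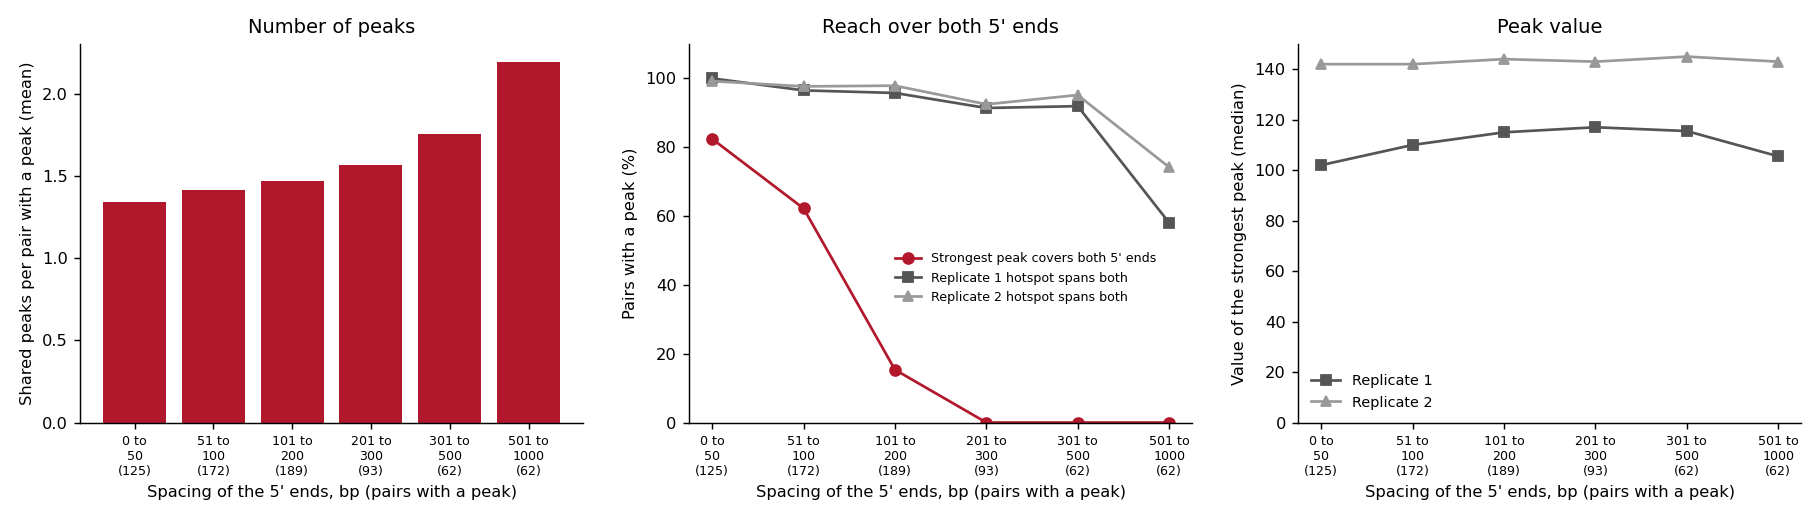
Mean number of shared peaks per pair (left), share of pairs (%) whose strongest peak or hotspot reaches both 5′ ends (middle) and median value of the strongest peak in each replicate (right), by spacing class in bp with the number of pairs with a peak below. The number of peaks climbs to 2.19, the reach of a single peak drops to 0 beyond 200 bp while hotspots still span most pairs, and the values change little.

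The strongest peak of a pair was centred between the 5′ ends more often than beyond them, except in the closest pairs. Its centre lay between the 5′ ends at 468 pairs (66.6%), beyond the minus-strand start at 123 and beyond the plus-strand start at 112, so neither strand was favoured and the median offset from the midpoint was 1.5 bp. In pairs 0 to 50 bp apart the centre lay between the ends in 46 of 125 (36.8%). In the wider classes the share ran from 65.1% to 80.6%, and a wider interval has more room for a centre. Seen from each start, the peak centre lay upstream at 81.9% of 1365 paired starts, with a median position of −56 bp (quartiles −105 and −15). At 10804 unpaired starts it lay upstream in 60.8%, with a median of −20 bp (quartiles −70 and 44.3). In a pair the space upstream of a gene belongs to its neighbour's promoter as well, so a peak of either start counts here.

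A second peak accompanied the first at 306 pairs. It lay a median of 410 bp away (quartiles 300 and 500 bp, closest 80 bp), beyond the starts at 231 pairs and between them at 75. It was weaker, with medians of 60 in replicate 1 and 122 in replicate 2, against 110 and 143 for the strongest peak of the same pairs. First and second were chosen by their values, so this order is given by the choice. Gart/Son, a purine synthesis enzyme and a splicing cofactor 554 bp apart, showed the layout of a wide pair, with a peak of 96 and 145 over the start of Gart and one of 126 and 150 inside Son (chr16:91647676-91647825). Mcm4/Prkdc had 129 and 147 at the start of Mcm4, and 84 and 128 at that of Prkdc.

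The bases under the peaks were much like those of single promoters. The GC content had a median of 64% at bidirectional peaks, against 66% at unpaired ones, and the number of CpG dinucleotides in 150 bp had a median of 13 in both groups (quartiles 9 and 17, against 8 and 18). Consensus matches were then counted on both strands in the 150 bp of each peak, as exact letters. ETS factors are a large family of activators that bind a GGAA core. Their match CCGGAAG was found in 17% of bidirectional peaks (interval 14.8 to 19.4%), against 9.98% of unpaired peaks. The CCAAT box (CCAAT), bound by NF-Y, was found in 31.7% (28.9 to 34.7%), against 23.4%. The short CRE of CREB and ATF factors (TGACG, which is also part of each full CRE) was found in 28.0%, against 19.9%. NRF1, a regulator of nuclear genes for mitochondria (GCATGCGC), was found in 5.13% (3.88 to 6.64%), against 3.13% (2.85 to 3.43%). With the strongest peak of each pair and start alone, NRF1 stood at 5.12% (3.59 to 7.04%), against 3.72% (3.37 to 4.10%), and these intervals overlap.

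In the 150 bp of each peak, the other promoter motifs differed by less than 2 percentage points. The GC box of SP factors (GGGCGG) was found in 51.2% of bidirectional peaks, against 50.2% of unpaired ones. The full CRE (TGACGTCA) was found in 2.95%, against 2.47%, YY1 (AAGATGGC) in 3.23%, against 2.08%, and the E box with a central CG (CACGTG) in 7.89%, against 6.18%. The short RFX match (GTTGCC) was found in 8.84%, against 7.20%, and the CGCG palindrome (CTCGCGAG) in 2.00%, against 1.09%. ZNF143 (ACTACAATT) was rare, at 0.760%, against 0.359%, as was E2F, at 0.380%, against 0.394%, for TTTGGCGC and at 0.665%, against 0.276%, for TTTCGCGC. The TATA box (TATAAA) was found in 1.52%, against 2.18%. Of the motifs of other factors, the core of CTCF (CCCTCNNG) was found in 18.9%, against 19.7%, the bHLH E box of proneural factors (CAGATG) in 4.66%, against 5.21%, and the SOX match (ACAAAG) in 5.04%, against 6.46%. Some gaps were wider in other settings. With the strongest peak of each pair and start alone, YY1 stood at 4.09% (2.74 to 5.86%), against 2.28% (2.01 to 2.58%). In 300 bp YY1 stood at 7.41% (5.90 to 9.17%), against 4.07% (3.75 to 4.40%), and the GC box at 67.2%, against 63.9%. SOX stood at 9.60% (7.89 to 11.5%) there, against 12.6% (12.1 to 13.1%), and TTTCGCGC at 1.33%, against 0.477%. No share was tested across libraries, since both replicates share the same sequence.

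**Figure D5:**
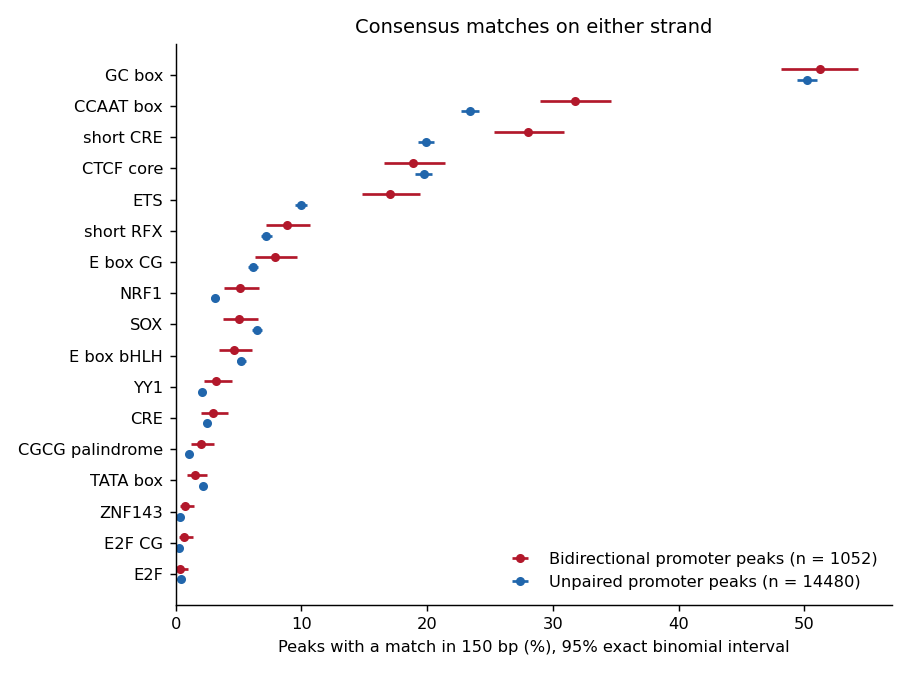
Share of peaks (%) with a consensus match on either strand in 150 bp, with 95% exact binomial intervals, for bidirectional promoter peaks (red, above) and unpaired promoter peaks (blue, below), motif by motif. ETS, the CCAAT box, the short CRE and NRF1 are the motifs described as more frequent at bidirectional peaks, with ETS at 17% against 9.98%.

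Single promoters that face a long noncoding RNA gave a second comparison. The ETS match was found in 14.2% (11.8 to 16.9%) of those 761 peaks, the CCAAT box in 28.8% (25.6 to 32.1%) and the short CRE in 26.0% (22.9 to 29.3%). These lie nearer to the bidirectional shares, and each interval overlaps that of bidirectional peaks. The difference fell to 2.82 percentage points for ETS, from 7.04 against all single promoters. For the CCAAT box it fell to 2.97 from 8.36, and for the short CRE to 2.02 from 8.13. NRF1 was found in 3.42% (2.24 to 4.97%), an interval that overlaps that of bidirectional peaks. The GC box was found in 59.4%, above the bidirectional share. The difference also grew for the CTCF core, to −3.42 percentage points from −0.801 against all single promoters. For YY1 it was 1.39, from 1.15, with a match in just 14 of the 761 peaks. This comparison group was added after the first shares were seen.

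ETS and CCAAT matches differed in frequency with the spacing of the pair. The strongest peak held an ETS match in 34.4% and 30.8% of the pairs at 0 to 50 and 51 to 100 bp, and in 15.3%, 16.1%, 9.68% and 9.68% of the 4 wider classes. The CCAAT box ran the other way, at 22.4% and 31.4%, then 48.1%, 55.9%, 50% and 45.2%. Pooled at 100 bp, a limit chosen after the shares were seen, ETS stood in 32.3% (27.0 to 38.0%) of 297 close pairs and 13.8% (10.6 to 17.5%) of 406 wider ones, and the CCAAT box in 27.6% (22.6 to 33.1%) and 49.8% (44.8 to 54.7%). The strongest peaks of unpaired starts held ETS in 11.7% and the CCAAT box in 26.9%.

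The distance of a peak from its start bears on both motifs at single promoters too. Among strongest peaks centred 0 to 25 bp upstream of the nearest start, 33.8% (26.0 to 42.3%) of 139 bidirectional ones held ETS, against 16.8% (15 to 18.8%) of 1559 unpaired ones. At 26 to 50 bp upstream the shares were 17.2% and 16.8%, at 51 to 100 bp 13.1% and 12.3%, and beyond 100 and up to 200 bp 8.93% and 6.29%. Inside the gene they were 24.1% and 10.3%. For the CCAAT box the shares at 0 to 25 bp upstream were 25.9% of bidirectional and 24.0% of unpaired peaks, and at 26 to 50 bp 49.2% and 31.5%. At 51 to 100 bp they were 55.5% (46.7 to 64.0%) of 137 bidirectional peaks and 40.7% (38.4 to 43.0%) of 1830 unpaired ones, and beyond 100 and up to 200 bp 62.5% (48.5 to 75.1%) of 56 and 42.2% (39.2 to 45.2%) of 1065. Beyond 200 and up to 500 bp the CCAAT share fell to 27.3% (23.9 to 30.9%) of 649 unpaired peaks. ETS stood at 4.78% there, and just 2 bidirectional peaks lay in that class. Inside the gene the CCAAT shares were 27.6% of bidirectional and 16.5% of unpaired peaks. These classes were set after the spacing shares were seen.

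Which genes share promoters was read from lists of gene families. Against 6.97% of all autosomal protein-coding genes, 32 of 98 DNA repair genes were in pairs (32.7%), and 33 of their 34 pairs had a peak, with medians of 113 in replicate 1 and 143 in replicate 2, beside 111 and 143 over all pairs with a peak. Since 95.6% of all pairs had one, the counts of pairs with a peak in most families are near that share and say nothing particular of a family. Replication-dependent histones had a lower count, at 11 of 14 pairs. Polk/Col4a3bp, a translesion polymerase and a ceramide transporter 39 bp apart (5′ ends at chr13:96542579-96542618), had 124 and 148. Atm/Npat had 131 and 147. Brca1/Nbr1 had 113 and 141, and Xpc/Lsm3 114 and 146. DNA replication and cell cycle genes were in pairs in 11 of 73 cases (15.1%), and all 12 pairs had a peak, with medians of 115 and 147. Abhd12/Gins1, which holds a subunit of the replicative helicase, had 118 and 148.

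Of 78 mitochondrial ribosomal proteins 18 were in pairs (23.1%), and all 18 pairs had a peak, with medians of 108 and 142. Ncapd2/Mrpl51, a condensin subunit 100 bp from a mitochondrial ribosomal protein, had 128 and 146. Of 83 respiratory chain genes 18 were in pairs (21.7%), all with a peak, with medians of 110 and 142. Uqcrh/Lrrc41, with a subunit of complex III, had 111 and 147. Of 37 aminoacyl-tRNA synthetases, which load amino acids on tRNA, 5 were in pairs (13.5%), all 5 with a peak, with medians of 110 and 141. Mrps12/Sars2 had 122 and 145. Cytosolic ribosomal proteins were in pairs in 8 of 79 cases (10.1%), with a peak at 7 of the 8 pairs. Those peaks had medians of 107 and 142, below the 115 and 144 at the unpaired starts of the same list. Med22/Rpl7a, with a Mediator subunit, had 120 and 149.

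Among the remaining families, 25 of 100 genes of RNA polymerases and general factors were in pairs (25%, all 25 pairs with a peak), as were 13 of 68 splicing genes (19.1%, all 13), 17 of 78 cilia genes (21.8%, all 17), 13 of 80 chaperones (16.3%, all 12 pairs) and 7 of 47 proteasome genes (14.9%, all 7). The proteasome pairs had medians of 102 and 139, below the 108 and 142 at unpaired proteasome starts. Psmb1/Tbp had 110 and 145. Cdc26/Prpf4, a subunit of the anaphase-promoting complex and a splicing factor 155 bp apart, had 131 and 147. Rpgrip1l/Fto, a gene of the ciliary transition zone and an RNA demethylase 263 bp apart, had 127 and 147. Hsp90b1/Ttc41, with the chaperone of the endoplasmic reticulum, had 132 and 148 in a peak between the starts. Zinc finger genes of the Zfp series were in pairs in 20 of 383 cases (5.22%), near the share of all genes, and 17 of their 18 pairs had a peak, with medians of 119 and 142.

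None of the 81 listed midbrain, neural progenitor and neuronal genes was in a pair, which allows a share of up to 3.70% by a limit of 3 counts. The list is a choice of genes and does not stand for all genes of neurons. Sncg and Grik5, outside the list, were in pairs. Of all autosomal protein-coding genes 6.97% were. As unpaired starts 74 of the 81 had a shared peak, with medians of 57.5 and 121, beside 58.4% of all unpaired starts with medians of 86 and 136. Replication-dependent histones had the opposite layout, with 27 of 67 in pairs (40.3%), 13 of whose 14 pairs joined 2 histone genes. A peak was found at 11 of the 14, beside 95.6% of all pairs. Hist1h2an/Hist1h2bp, an H2A and an H2B gene 243 bp apart, had 120 and 144. Their hotspots were narrow, with a median of 297 bp in both replicates, against 1080 and 1603 bp at the other 692 pairs, and spanned both starts at 3 of the 11. Histone genes are near-identical copies, so reads there may map to several places, and how the authors treated such reads is not given in the sources used here.

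Of 47 pairs listed as known from textbooks and earlier studies of shared promoters, 14 were head-to-head pairs within 1000 bp in this annotation. All 14 had a shared peak, beside 95.6% of all pairs. Apart from Col4a4/Col4a3, their values ran from 110 to 148 in replicate 1 and from 141 to 150 in replicate 2. The 14 include Hjurp/Trpm8 and Dtl/Ints7, which also led the ranking of these same data. The list is therefore no independent support for strong peaks at known pairs.

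The 32 pairs without a shared peak were mostly closed in both libraries. At 24 of them neither replicate had a peak, 1 had a peak in replicate 1 alone and 4 in replicate 2 alone, and 3 had a peak in each that did not overlap. With pairs that hold a gene model set aside, the first 10 by the name of either gene were Aspa/Spata22, Best1/Rab3il1, Bhmt2/Dmgdh, Smyd1/Cd8b1, Cenpj/Parp4, Klc3/Ckm, Odf3l1/Cspg4, Dgcr2/Tssk2, Ppp1r3d/Fam217b and Tssk3/Fam229a. Tssk2 and Tssk3 are testis kinases, Ckm is the muscle creatine kinase and Dmgdh a liver enzyme, while Dgcr2 and Parp4 are known from many tissues. The highest value at such a pair was 39 in replicate 1 and 111 in replicate 2, at Ppp1r3d/Fam217b, where the peaks did not overlap. Pecam1/Milr1, with an endothelial adhesion gene, had no peak in either replicate.

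At 16 of the 32, 1 of the genes had a shared peak at another annotated start. For Xrcc1, a DNA repair scaffold, it lay 861 bp from the 5′ end of the pair, with values of 133 and 146. For Rps2, a ribosomal protein, it lay 1947 bp away with 121 and 147, for Nt5c3b 719 bp away with 90 and 141, and for Cenpj, a centriole gene, 3579 bp away with 111 and 146. Ccnt1, the cyclin of P-TEFb, had 117 and 145 at a start 3287 bp away. The pairing used the 5′ end of the gene as annotated, and these peaks stood at another start.

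Values close to the limits of the rule are given without a test. The 3 pairs just inside the spacing of 1000 bp were Zfyve26/Rad51b at 978 bp (strongest values 116 and 143), Asphd1/Sez6l2 at 981 bp (74 and 130) and Btf3l4/Txndc12 at 987 bp (125 and 146). Just outside were Gpr108/Trip10 at 1009 bp (81 and 129), Sgsm2/Tsr1 at 1011 bp (106 and 139) and Dirc2/Hspbap1 at 1019 bp (85 and 134). By distance from the interval, peaks just inside were those of Zfyve28/Cfap99 at 498 bp (22 and 83) and Slc39a7/Rxrb at 499 bp (24 and 105). The first outside were L3hypdh/Jkamp at 502 bp (105 and 140), Mmachc/Ccdc163 at 502 bp (8 and 40) and Taf5l/Urb2 at 503 bp (9 and 33).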

How the data were processed

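DNase-seq peak and hotspot lists of 2 biological replicates of 1 group were used, grouped and numbered from the labels. Per the labels the assembly is mm10. Which aligner and peak caller were used is not given in the sources used here. The authors called each replicate separately. Peaks in the deposited lists span 150 bp, apart from 2 narrower ones in replicate 1, and carry a whole-number signal value, 150 at most, and the deposited hotspot lists give a −log10 q value capped at 100. The display score of the hotspots, the text notes, and chromosomes X, Y and M were left out. The deposited files give no depth, so precision rests on the 2 replicates and on the number of peaks.

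Genes came from GENCODE M21 and sequence from RefSeq GRCm38.p6. Intervals are 95% exact binomial (Clopper-Pearson). No test was made across peaks, which are not replicates. The 15 gene lists, 17 motifs, the members and the comparisons were chosen with earlier results of these data known. Named pairs were the 10 highest and 5 lowest by mean percentile rank of the strongest peak, the leading 3 of each list, textbook pairs, the first 10 by name without a peak, and 3 to each side of both limits; a selection of these is printed, and some are not reported here. Percentile ranks were taken among the autosomal peaks of each replicate. The programs were tested on simulated data with planted pairs and peaks. Alternatives changed the spacing, the distance, the overlap, the gene models, the starts, the motif window and the replicates used. The tools were pysam 0.24.0, pandas 2.3.3, numpy 2.4.6, matplotlib 3.10.9 and scipy 1.17.1 under Python 3.11.15.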

Additional observations from a re-analysis of the deposited data

How the results depend on the processing

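The number of pairs with a shared peak ran from 630 to 1016 over 11 alternatives, and the number of bidirectional peaks from 823 to 1681. The 1681 came from using any protein-coding transcript start. The share of paired starts with a peak exceeded that of unpaired starts by 35.7 percentage points. Leaving out each replicate in turn gave 31.2 to 32.8, peaks above the median of each replicate 37.5, a spacing of up to 2000 bp 31.5, a centre within 250 bp 38.0, and both leaving out gene models and using any transcript start 32.6. The median percentile rank of bidirectional peaks exceeded that of unpaired ones by 1.90, averaged over the replicates. It was 3.31 to 4.31 with 1 replicate left out, 4.27 with a centre within 1000 bp, 3.13 with any transcript start and 0.874 within the same range of CpG number. None of these values changed direction. Of 51 alternatives for motif shares 40 stayed within the interval of the main value and 11 moved. Against single promoters facing a long noncoding RNA, an alternative added after seeing the data, the difference was −8.16 percentage points for the GC box (1.02 against all single promoters) and 0.338 for the TATA box (−0.655). Apart from these, a sign changed for E2F, whose difference was near 0. No paired analysis was possible because the samples form 1 group. Read depth is unknown, peak centres are resolved to 20 bp, and the values crowd towards their cap of 150 in replicate 2, which limits differences among strong promoters.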
